A study of Mus musculus with 10 samples.

Results

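The 10 genes Wt1, Gata4, Nr5a1, Lhx9, Emx2, Foxl2, Fst, Kitl, Amhr2 and Nr2f2, known from the somatic cells of the gonad, were taken by symbol from a table of 36066 genes, and all 10 were found. The table holds RNA-seq of mouse cells of the strain C57BL6 in 10 libraries, with 2 in each of 5 groups. ESCs were a female ES cell line made from fertilized embryos and pESCs a parthenogenetic ES cell line made from activated oocytes, both grown on feeder fibroblasts according to the study's methods. ESC-PGCLCs and pESC-PGCLCs were primordial germ cell-like cells made from these lines through epiblast-like cells and then 4 days with 500 ng/ml BMP4, SCF, EGF and LIF, and were sorted as cells bearing SSEA1 and CD61. PGCs were primordial germ cells sorted from gonads of female embryos with antibodies to SSEA1, with or without CD61, and their labels give neither the embryonic day nor the sorting method of each library. Each group stands for 1 cell line or 1 kind of sorted cell, and the study calls its RNA-seq replicates biological. The labels do not say whether the 2 libraries of a group came from separate cultures or litters, and the p-values measure the spread between these libraries.

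The gonad forms from the coelomic epithelium of the genital ridge, where the transcription factors WT1, GATA4, LHX9, EMX2 and NR5A1 are needed for the ridge to grow and to form gonadal cells. FOXL2 and follistatin mark the supporting cells of the ovary, KIT ligand from somatic cells keeps KIT-bearing germ cells alive, AMHR2 receives anti-Müllerian hormone, and NR2F2 marks interstitial progenitors. Germ cells migrate into this tissue from elsewhere in the embryo, and in a gonad these genes are used mainly by the cells around the germ cells.

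The libraries held from 6779837 recovered reads, in ESC-PGCLC replicate 2, up to 18572900, in ESC replicate 2. The germ cell marker Dazl was used to check the labels, but only for the split between stem cells and germ cell groups. It does not check which germ cell libraries are PGCLCs and which are PGCs. It lay between 1084 and 2095 TPM in the 6 PGCLC and PGC libraries and between 12.1 and 18.7 TPM in the 4 stem cell libraries. Not all germ cell markers listed rose: Fut9 had means of 6.66 TPM in ESCs and 1.27 TPM in PGCs, and Prdm14 of 17.6 and 20.8 TPM. The 6 PGCLC and PGC libraries also held embryonic globin, with Hbb-y between 300.2 and 1664 TPM against at most 1.64 TPM in stem cells. The source of this globin RNA was not tested. Level is given throughout as TPM, which is scaled for gene length and sums to the same total in every library. In these bulk samples, fewer cells of a type and less RNA per cell cannot be told apart.

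Amhr2 was the only one of the 10 genes that was lower in ESC-PGCLCs than in ESCs, so the 250 bases before its start, at chr15:102445117-102445366 on the + strand of GRCm38.p6, are shown from RefSeq. Capitals mark 2 matches to motifs of gonadal factors, which do not overlap. The first, 231 bases before the start, is a match to the NR5A motif, and the second, 199 bases before it, is a match to the GATA motif on the other strand.
Amhr2: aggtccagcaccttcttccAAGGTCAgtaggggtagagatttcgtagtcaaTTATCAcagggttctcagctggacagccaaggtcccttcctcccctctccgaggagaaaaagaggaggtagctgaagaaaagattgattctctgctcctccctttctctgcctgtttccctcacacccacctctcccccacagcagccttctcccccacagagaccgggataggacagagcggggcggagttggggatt
Motifs were searched by their letters on both strands in 32851 windows of the same length. The NR5A motif was searched as AAGGTCA and was held by 4.08% of all windows. The GATA motif was searched in 2 forms, with AGATAA as one of them, and 16.6% of windows held either form. The other form of it was written as TGATAA when read along its own strand. The motif of WT1 was searched as GTGGGAG, which was found in 8.25% of the windows. The homeodomain motif was searched as TAATTA, which was found in 4.84% of the windows. Windows were at hand for 6 of the 10 genes. Lhx9 held 1 GATA match, and Emx2, Foxl2, Kitl and Nr2f2 held no match to any of the 4. A match is a description of letters and not a binding site. Wt1, Gata4, Nr5a1 and Fst had no window.

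The 10 genes together were lowest in the stem cells, higher in ESC-PGCLCs, higher again in pESC-PGCLCs and highest in PGCs. Their summed level was 9.15 ± 0.655 TPM in ESCs, 7.40 ± 0.287 TPM in pESCs, 49.6 ± 3.94 TPM in ESC-PGCLCs, 96.2 ± 4.17 TPM in pESC-PGCLCs and 184 ± 5.20 TPM in PGCs (SD, n = 2 in each group). No library of one group overlapped another group in this sum. ESC-PGCLCs thus held 27.0% and pESC-PGCLCs 52.4% of the PGC level. A few genes carry the sum: Kitl made up 32.7% to 42.0% of it in the 6 germ cell libraries, whereas in the stem cells Amhr2 made up 37.1% to 65.4% and Fst 31.9% to 56.6%. With each library scaled by the median ratio of the 9024 genes at 1 TPM or more everywhere, the order of the 3 germ cell groups stayed, with sums of 53.9, 78.4 and 134.7 TPM, and pESCs (10.2 TPM) came above ESCs (9.95 TPM).

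**Figure D1:**
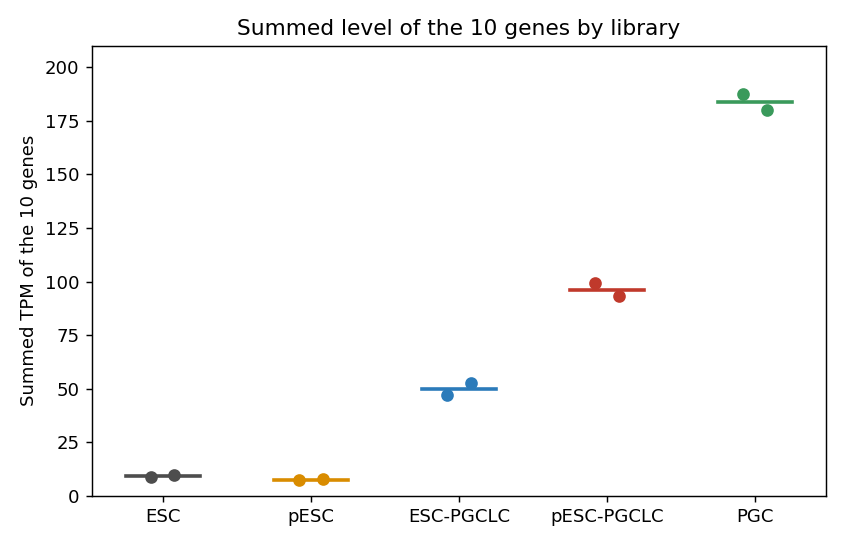
Summed TPM of the 10 genes (y axis) in each of the 10 libraries (points), with the group mean as a bar. The PGC libraries lie at 180.1 and 187 TPM, the pESC-PGCLC libraries at 93.3 and 99.2 TPM, the ESC-PGCLC libraries at 46.8 and 52.4 TPM, and all 4 stem cell libraries below 10 TPM.

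A gene was called when its limma adjusted p, over all 27259 genes tested, was under 0.05 and its change on log2(TPM + 1) at least 2-fold. A fold change on this scale understates the change of genes near 0. All 10 genes passed the low-value filter of 0.1 TPM in 2 libraries, but Wt1, Nr5a1, Lhx9, Emx2 and Foxl2 reached 0.1 TPM in no stem cell library and passed only through the germ cell groups, so the counts of calls against stem cells describe these genes and are no support for a change. The same holds against ESC-PGCLCs for Foxl2, which reached 0.1 TPM in neither of their libraries, and for Nr5a1, which reached it in 1, and their values there are descriptions. With 2 libraries against 2, an exact permutation test cannot go below p = 0.333, and the limma tests draw on the spread of all 5 groups. Gene positions are those of GENCODE M21 on GRCm38, from the first to the last exon. Calls over all genes lean with the scaling of the libraries. The share of higher calls went from 21.1% as deposited to 84.3% with median centring between pESCs and ESCs, from 77.0% to 43.6% between the PGCLCs, from 75.4% to 31.3% between pESC-PGCLCs and pESCs, from 86.4% to 26.2% between PGCs and ESC-PGCLCs, and from 56.4% to 26.3% between PGCs and pESC-PGCLCs. It went from 71.8% to 42.1% between PGCs and ESCs and from 78.7% to 29.3% between PGCs and pESCs, and stayed at 51.2% and 51.8% between ESC-PGCLCs and ESCs. Median centring subtracts a constant from log2(TPM + 1), so it moves genes at 0 by construction. With median scaling of TPM as above, 1585 genes were called higher and 1390 lower between the PGCLCs. The counts were 938 and 1054 between PGCs and ESC-PGCLCs, and 273 and 562 between PGCs and pESC-PGCLCs. They were 3084 and 3284 between pESC-PGCLCs and pESCs, and 104 and 53 between pESCs and ESCs.

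Wt1 (chr2:105126529-105173616), a zinc finger factor of the early gonad and kidney, was all but absent from stem cells and clear in every germ cell library. Its level was 0.0526 and 0.0136 TPM in ESCs, 0 and 0.0931 TPM in pESCs, 7.16 and 8.05 TPM in ESC-PGCLCs, 13.0 and 11.0 TPM in pESC-PGCLCs, and 26.2 and 22.4 TPM in PGCs. The 3 germ cell groups did not overlap. The fitted log2 difference of Wt1 was 3.06 ± 0.17 (SE) from ESCs to ESC-PGCLCs and 3.63 ± 0.17 from pESCs to pESC-PGCLCs. Both describe a gene that passed the filter only through the germ cell groups. PGCs were higher than ESC-PGCLCs by 1.55 ± 0.17 (limma adjusted p = 0.00141), and their difference of 0.96 ± 0.17 from pESC-PGCLCs stayed under 2-fold (limma adjusted p = 0.0236).

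Lhx9 (chr1:138825186-138848577), a LIM homeobox factor without which the gonad does not form, had a like order but closer levels in the PGCLCs of both origins. It had 1 read in 1 ESC library and none in the other 3 stem cell libraries, which allows up to 0.0181 TPM in pESCs over the group. Its level was 6.20 and 7.48 TPM in ESC-PGCLCs, 9.26 and 7.71 TPM in pESC-PGCLCs, and 16.3 and 19.1 TPM in PGCs. Lhx9 was at least 467-fold higher in pESC-PGCLCs than in pESCs, against the floor of 3 reads over the group. The gap between the PGCLCs of both origins was 0.28 ± 0.17 on the log2 scale (95% interval -0.13 to 0.68, limma adjusted p = 0.315), and it turned to -0.061, -0.13 and -0.093 under quantile normalization, median centring and median scaling of TPM.

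Emx2 (chr19:59458372-59465357), a homeobox factor of the urogenital ridge, separated the PGCLCs of both origins. It had no read in ESCs and 1 read in pESCs. Its level was 1.68 and 2.54 TPM in ESC-PGCLCs, 7.47 TPM in both pESC-PGCLC libraries, and 10.3 and 12.5 TPM in PGCs. Emx2 was higher in pESC-PGCLCs than in ESC-PGCLCs by 1.46 ± 0.19 on the log2 scale (limma adjusted p = 0.00144). Against PGCs, the pESC-PGCLCs differed by 0.55 ± 0.19 (limma adjusted p = 0.107), whereas PGCs exceeded ESC-PGCLCs by 2.01 ± 0.19 (limma adjusted p = 0.0011). Its antisense neighbour Emx2os shares 5.51% of the 100-base stretches of Emx2, and no source states a count by strand, so reads of the overlap cannot be assigned to one of them. Emx2os had a mean of 0 TPM in ESCs and pESCs, 0.290 TPM in ESC-PGCLCs, 2.03 TPM in pESC-PGCLCs and 2.72 TPM in PGCs.

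Gata4 (chr14:63198922-63271692), a zinc finger factor that acts at the start of genital ridge growth, showed the same separation. Its level was 0.139 and 0.172 TPM in ESCs, 0.0583 and 0.0887 TPM in pESCs, 0.485 and 0.818 TPM in ESC-PGCLCs, 4.24 and 3.10 TPM in pESC-PGCLCs, and 5.82 and 3.88 TPM in PGCs. The pESC-PGCLC and PGC libraries overlapped, and both lay well above the ESC-PGCLC libraries. Gata4 was higher in pESC-PGCLCs than in ESC-PGCLCs by 1.50 ± 0.22 on the log2 scale (limma adjusted p = 0.00244). From ESCs to ESC-PGCLCs its change was 0.51 ± 0.22 (limma adjusted p = 0.0996), and from pESCs to pESC-PGCLCs it rose by 2.11 ± 0.22 (limma adjusted p = 0.000182).

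Nr5a1 (chr2:38692656-38714542), the nuclear receptor that switches on steroid synthesis genes, had no read in any stem cell library. It was at 0.0991 and 0.348 TPM in ESC-PGCLCs, which is 8 reads over both libraries. It was at 1.55 and 1.83 TPM in pESC-PGCLCs and at 4.18 and 1.96 TPM in PGCs. The lower PGC library lay close to the pESC-PGCLC libraries. Against the floor of 3 reads over the group, Nr5a1 was at least 41.9-fold higher in pESC-PGCLCs than in pESCs and at least 85.8-fold higher in PGCs than in ESCs. Its fitted log2 difference between pESC-PGCLCs and ESC-PGCLCs was 1.14 ± 0.25, as a description of a gene that passed the filter through the groups where it was high, and the call was lost with quantile normalization, median centring and median scaling of TPM (0.73 to 0.97), without ESC-PGCLC replicate 1 (1.00) and without pESC-PGCLC replicate 1 (1.22) or replicate 2 (1.07).

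**Figure D2:**
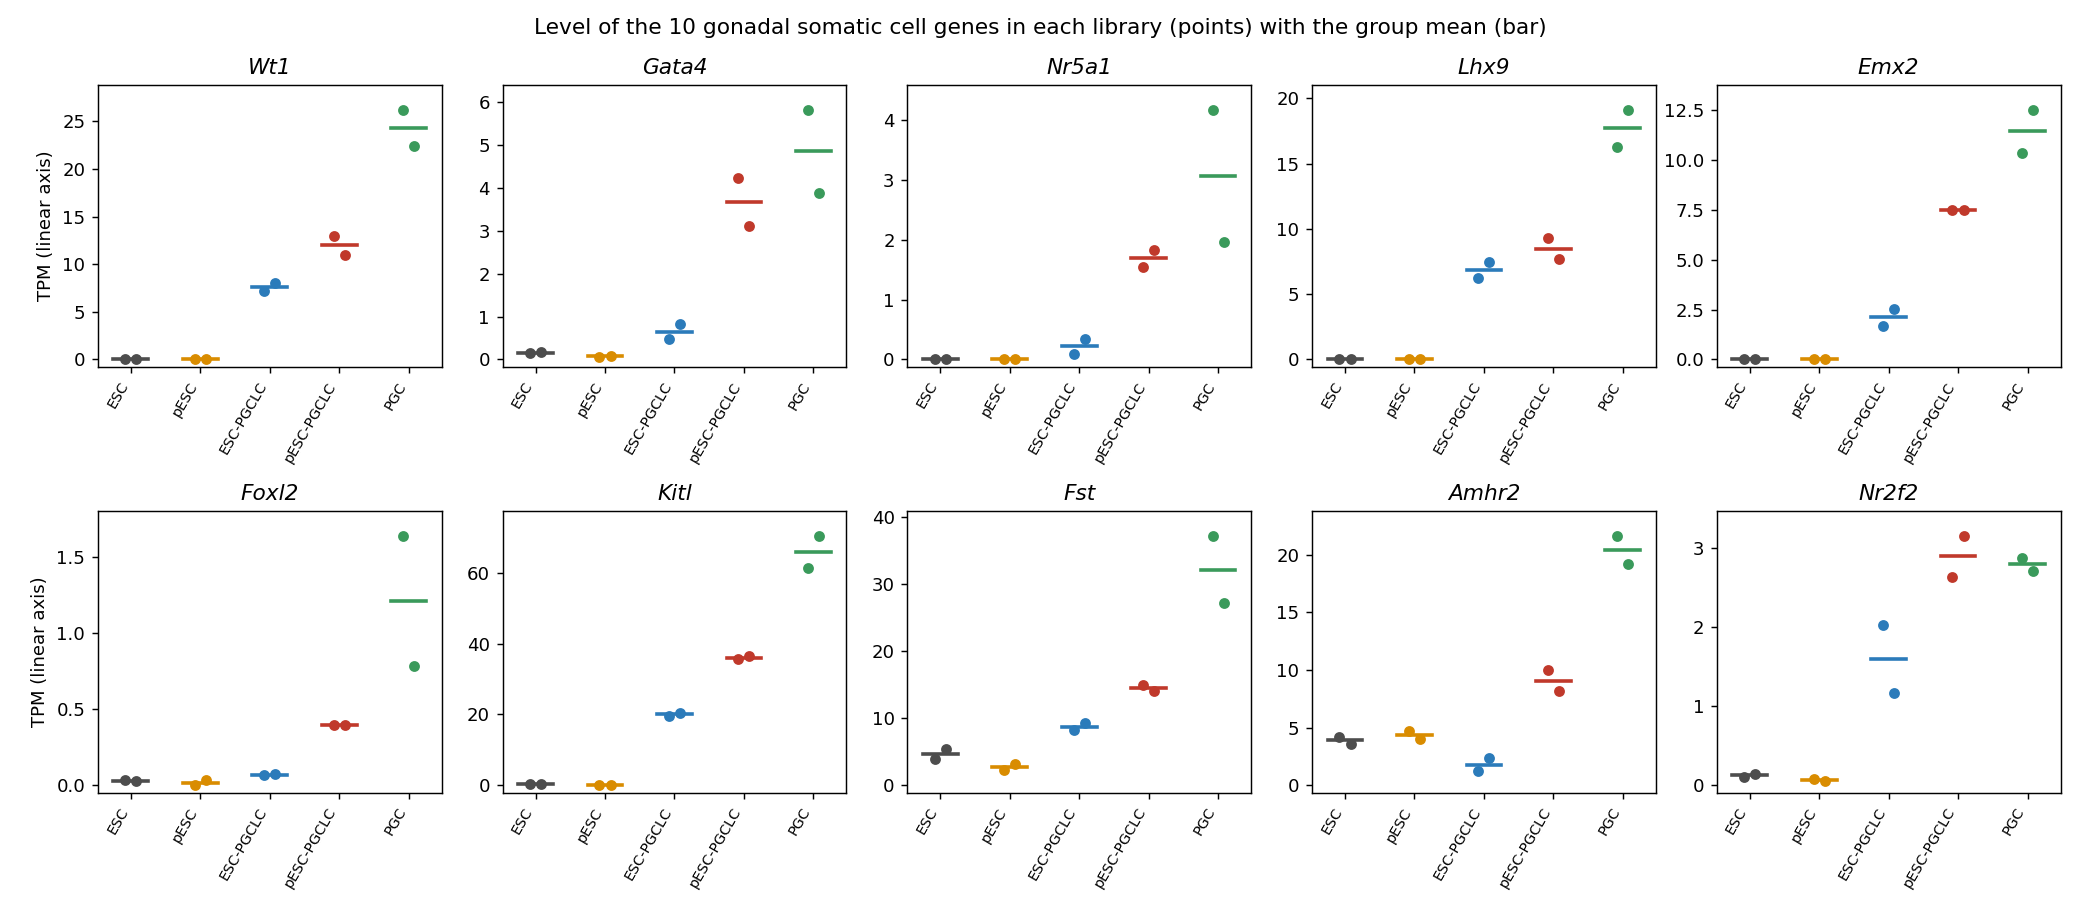
TPM (y axes, linear, each with its own scale) of the 10 genes in each library (points) of the 5 groups, with group means as bars. In 9 of 10 panels the PGC mean is the highest, the exception being Nr2f2, and only in the Amhr2 panel do ESC-PGCLCs (1.26 and 2.33 TPM) lie below the stem cells.

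Foxl2 (chr9:98955288-98958543), the forkhead factor of granulosa cells, was the scarcest of the 10 in the germ cell groups. Over both libraries it had 2 reads in ESCs, 1 read in pESCs, 2 reads in ESC-PGCLCs, 23 reads in pESC-PGCLCs and 57 reads in PGCs. Its level was 0.0646 and 0.0755 TPM in ESC-PGCLCs, 0.397 and 0.392 TPM in pESC-PGCLCs, and 1.64 and 0.782 TPM in PGCs. The fitted log2 difference between PGCs and ESC-PGCLCs was 1.02 ± 0.17, and 0.74 without PGC replicate 1, as a description of a gene that passed the filter only through pESC-PGCLCs and PGCs. The ratio of ESC-PGCLCs to ESCs, 2.39 with a counting interval of 0.173 to 33.0, shows no difference detectable at this depth.

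Fst (chr13:114452290-114458951) encodes follistatin, a secreted protein that binds activin, and unlike Foxl2 it was present in every library. Its level was 3.86 and 5.44 TPM in ESCs, 2.29 and 3.11 TPM in pESCs, 8.16 and 9.25 TPM in ESC-PGCLCs, 14.9 and 14.0 TPM in pESC-PGCLCs, and 37.2 and 27.1 TPM in PGCs. No 2 groups overlapped. The rise from pESCs to pESC-PGCLCs was 2.07 ± 0.22 on the log2 scale (limma adjusted p = 0.000179), while the change from ESCs to ESC-PGCLCs, 0.79 ± 0.22 (limma adjusted p = 0.0179), stayed under 2-fold. Its antisense neighbour Gm47040 shares 0.341% of the 100-base stretches of Fst and had a mean of at most 0.478 TPM in any group.

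Kitl (chr10:100015630-100100416), the ligand of the germ cell receptor KIT, was the most abundant of the 10 in all germ cell groups. Its level was 0.275 and 0.242 TPM in ESCs, 0.0578 and 0.156 TPM in pESCs, 19.7 and 20.3 TPM in ESC-PGCLCs, 35.8 and 36.4 TPM in pESC-PGCLCs, and 61.3 and 70.6 TPM in PGCs. The libraries of each germ cell group lay close together, the pESC libraries (3 and 8 reads) less so, and the 5 groups did not overlap. Kitl rose by 4.06 ± 0.14 on the log2 scale (limma adjusted p = 1.73e-06) from ESCs to ESC-PGCLCs, and by 5.07 ± 0.14 (limma adjusted p = 1.81e-06) from pESCs to pESC-PGCLCs. Between the PGCLCs, the difference of 0.82 ± 0.14 passed the p threshold but not 2-fold (limma adjusted p = 0.00467).

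Amhr2 (chr15:102445367-102454633), the receptor of anti-Müllerian hormone, was the gene that did not follow the others. Its level was 4.22 and 3.57 TPM in ESCs, 4.71 and 4.03 TPM in pESCs, 1.26 and 2.33 TPM in ESC-PGCLCs, 9.96 and 8.22 TPM in pESC-PGCLCs, and 21.7 and 19.2 TPM in PGCs. The ESC-PGCLC libraries lay below both stem cell groups and the pESC-PGCLC libraries above them. From ESCs to ESC-PGCLCs the log2 change was -0.83 ± 0.22 (limma adjusted p = 0.0147), under 2-fold, and past 2-fold at -1.11 without ESC-PGCLC replicate 2, at -1.13 with a pseudocount of 0.1 TPM and at -1.21 with voom on the recovered reads. From pESCs to pESC-PGCLCs it was 0.91 ± 0.22 (limma adjusted p = 0.0104), also under 2-fold. Amhr2 was higher in pESC-PGCLCs than in ESC-PGCLCs by 1.87 ± 0.22 (limma adjusted p = 0.000874), and PGCs exceeded ESC-PGCLCs by 2.96 ± 0.22 (limma adjusted p = 0.000634), on this scale the widest gap of the 10 genes in either comparison.

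Nr2f2 (chr7:70351944-70366735), an orphan nuclear receptor of interstitial and mesenchymal cells, did not separate PGCs from pESC-PGCLCs. Its level was 0.101 and 0.146 TPM in ESCs, 0.0792 and 0.0535 TPM in pESCs, 2.02 and 1.17 TPM in ESC-PGCLCs, 2.63 and 3.15 TPM in pESC-PGCLCs, and 2.87 and 2.71 TPM in PGCs. The PGC libraries lay within the range of the pESC-PGCLCs, with a difference of -0.03 ± 0.19 on the log2 scale (95% interval -0.49 to 0.42, limma adjusted p = 0.96). Nr2f2 rose by 1.19 ± 0.19 (limma adjusted p = 0.00147) from ESCs to ESC-PGCLCs and by 1.86 ± 0.19 (limma adjusted p = 0.000176) from pESCs to pESC-PGCLCs. The first of these fell to 0.95 and under 2-fold without ESC-PGCLC replicate 1. Its neighbour B130024G19Rik on the other strand shares 6.37% of its 100-base stretches and had a mean of at most 0.0707 TPM in any group.

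Between the stem cells, the question was whether a parthenogenetic line differs from a line of fertilized embryos before differentiation. None of the 10 genes was called by limma or by limma with voom on the recovered reads, beside 0.781% of all genes called in either direction. At an unadjusted p under 0.05 limma gave 1 gene, Fst, with a log2 difference of -0.60 ± 0.22 (limma adjusted p = 0.192).

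For each line, PGCLCs were then set against their stem cells. Of the 10 genes, 5 were called higher in ESC-PGCLCs (Wt1, Lhx9, Emx2, Kitl and Nr2f2), beside 15.3% of all genes called higher, and their median log2 change was 0.99 against 0.05 over all genes. With a pseudocount of 0.1 TPM, and with voom on the recovered reads, 7 were called higher, Gata4 and Nr5a1 being added, and Amhr2 was called lower. Nr5a1, with 8 reads over both ESC-PGCLC libraries, counts as a description only, as do Wt1, Lhx9 and Emx2. The share of all genes called in these settings is not given here. In pESC-PGCLCs 8 were called higher, all except Amhr2 and Foxl2, beside 20.8% of all genes, with a median of 2.09 against 0.22. Both comparisons rest on separate stem cells, and each gene's own values stand above.

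PGCLCs of both origins were also compared directly. Gata4, Nr5a1, Amhr2 and Emx2 were called higher in pESC-PGCLCs, 4 of 10 beside 10.3% of all genes, with Nr5a1 counted as a description only. Each of the 10 genes was higher in both pESC-PGCLC libraries than in both ESC-PGCLC libraries, which held for 41.8% of all genes tested, and the fitted difference turned below 0 for Lhx9 under the scalings given above and for Foxl2 with median centring (-0.028). The difference between the lines in the change from stem cells to PGCLCs was tested as an interaction. It was called for Amhr2 (1.74 ± 0.31 on the log2 scale, limma adjusted p = 0.00587), Gata4 (1.60 ± 0.31, limma adjusted p = 0.00905), Emx2 (1.43 ± 0.27), Fst (1.28 ± 0.31, limma adjusted p = 0.0212) and Kitl (1.01 ± 0.20, limma adjusted p = 0.00912), 5 of 10 beside 15.5% of all genes called higher. Emx2 counts as a description only, since it reached 0.1 TPM in no stem cell library. With stem cell levels near 0, the interactions of Emx2 and Gata4 largely repeat their direct gaps between the PGCLCs (1.46 and 1.50). The median change of all genes in this interaction was 0.21 as deposited, -0.54 with median centring and -0.02 with median scaling of TPM. With median scaling and with quantile normalization 3 calls remained, Fst and Kitl being lost, and with median centring none did. With voom on the recovered reads Emx2 was not called (0.56, limma adjusted p = 0.725). Without pESC replicate 1, ESC-PGCLC replicate 1 or pESC-PGCLC replicate 2 there were 3 calls too, again without Fst and Kitl. Fst was also lost without ESC replicate 2 or pESC-PGCLC replicate 1, and Kitl without ESC replicate 1. The share of higher calls among all genes called in this interaction was 81.5% as deposited and 29.8% with median centring. With median scaling of TPM, 1994 genes were called higher and 1867 lower.

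**Figure D3:**
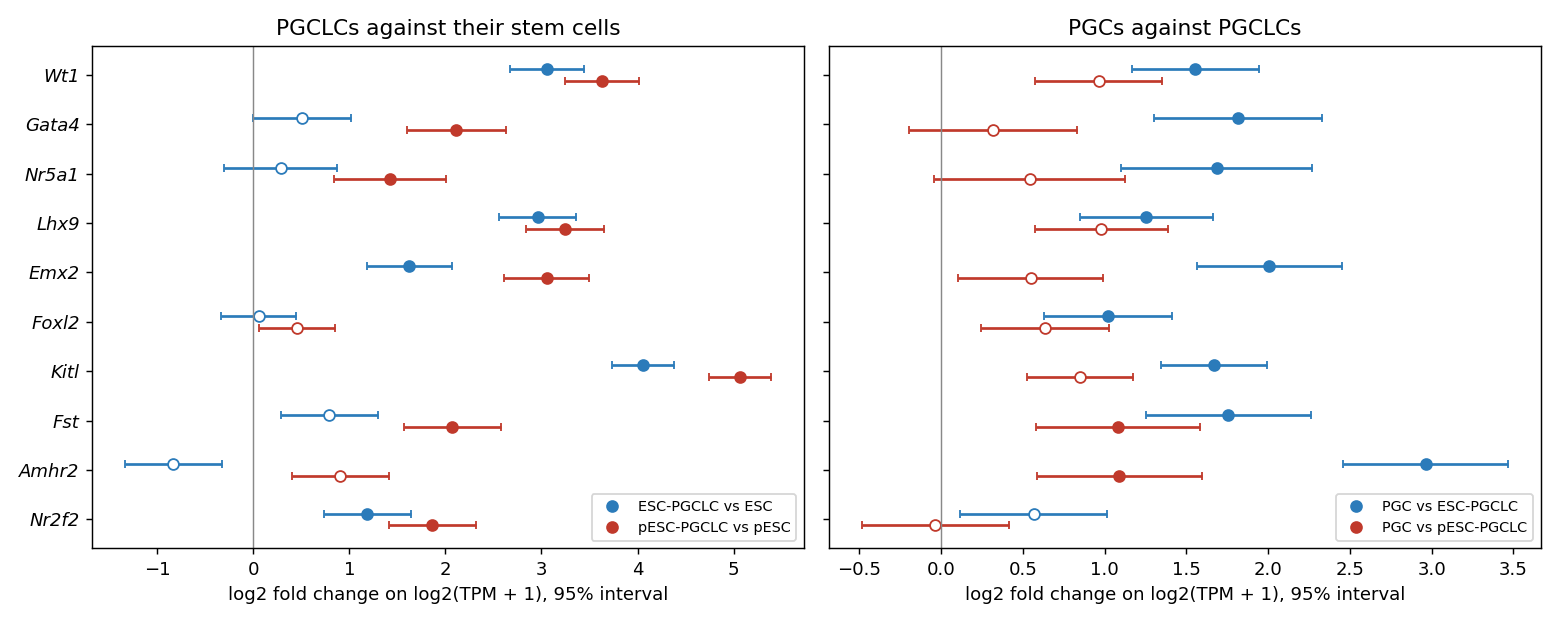
Log2 fold change on log2(TPM + 1) with its 95% interval (x axes) of each gene, on the left from stem cells to PGCLCs of each origin and on the right from PGCLCs to PGCs, with filled points for called genes. On the left Amhr2 alone lies below 0, at -0.83 in ESC-PGCLCs, and on the right Nr2f2 lies near 0 against pESC-PGCLCs, at -0.03.

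PGCs were then compared with both PGCLCs, which share the PGC libraries. Against ESC-PGCLCs, 9 of 10 genes were called higher in PGCs, Foxl2 and Nr5a1 as descriptions only, beside 12% of all genes, the exception being Nr2f2 (0.57 ± 0.19, limma adjusted p = 0.0606, and -0.040 with median centring). Foxl2 was lost without PGC replicate 1, Lhx9 and Foxl2 fell under 2-fold with quantile normalization, median centring and median scaling of TPM, and Wt1 with median centring (0.95). Against pESC-PGCLCs, Amhr2 (1.09 ± 0.22, limma adjusted p = 0.032) and Fst (1.08 ± 0.22, limma adjusted p = 0.0321) were called higher, beside 2.07% of all genes. These 2 calls were lost with median scaling of TPM, with median centring, with quantile normalization and without any 1 of ESC replicate 1, ESC replicate 2, pESC-PGCLC replicate 1, pESC-PGCLC replicate 2 and PGC replicate 1, each of which left 0 of 10 called. Amhr2 was also lost with a pseudocount of 0.1 TPM, and Fst without either ESC-PGCLC replicate. Against the stem cells, which share the PGC libraries too, all 10 genes were called higher in PGCs, beside 23.4% of all genes against ESCs and 26.9% against pESCs. Without PGC replicate 1, Foxl2 fell under 2-fold in both (0.79 and 0.81 on the log2 scale), as it did with quantile normalization, median centring and median scaling of TPM.

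As a share of the PGC level, the genes were at a lower median in ESC-PGCLCs than in pESC-PGCLCs. In ESC-PGCLCs the median was 22.8%, from 5.79% for Foxl2, 7.28% for Nr5a1 and 8.79% for Amhr2 to 38.6% for Lhx9 and 57.2% for Nr2f2. In pESC-PGCLCs the median was 52.0%, from 32.6% for Foxl2 to 75.7% for Gata4 and 103.6% for Nr2f2. These shares use TPM as deposited and depend on the scaling. The median scaling factors were 0.894 and 0.945 in ESC-PGCLCs, 1.22 and 1.23 in pESC-PGCLCs and 1.42 and 1.31 in PGCs. Dividing by them raises the shares, more so in ESC-PGCLCs.

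**Figure D4:**
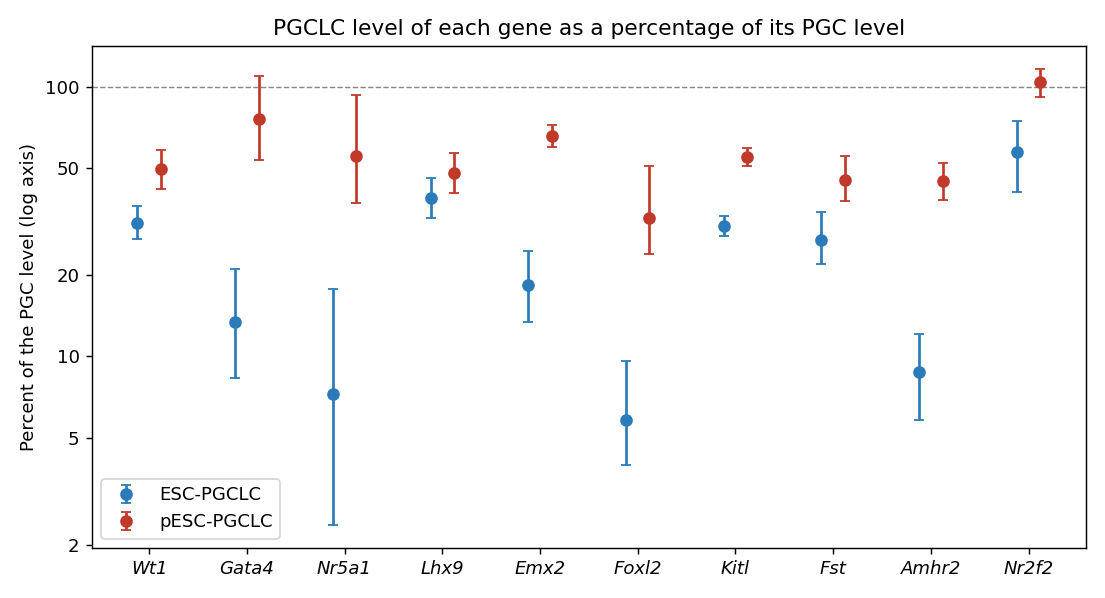
Level of each gene in ESC-PGCLCs and pESC-PGCLCs as a percentage of its PGC level (y axis, log), as the ratio of group means (points) and the lowest and highest ratio of single libraries (bars), with a dashed line at the PGC level. The ESC-PGCLC points run from 5.79% (Foxl2) to 57.2% (Nr2f2) and the pESC-PGCLC points from 32.6% to 103.6%, all from TPM as deposited.

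Other genes of gonadal supporting cells, from a list fixed with earlier results known, had 14 of 16 members in the table, and Amh and Fshr were not analysed here. Of these 14, 7 were called higher in ESC-PGCLCs against ESCs, beside 15.3% of all genes, 10 in pESC-PGCLCs against pESCs, beside 20.8%, and 10 in PGCs against ESCs, beside 23.4%. In both ESC libraries 13 of the 14 were under 0.5 TPM, and the counts against stem cells are descriptions here too. The most abundant of the list were Dmrt1, which is used by germ cells too and was at 24.0 to 53.1 TPM in the 6 germ cell libraries, the retinoic acid enzyme gene Aldh1a1 and Rspo1. Rspo1, a Wnt activator of the ovary, was at 1.30 and 1.90 TPM in ESC-PGCLCs, 7.15 and 9.49 TPM in pESC-PGCLCs and 12.5 and 8.68 TPM in PGCs. With Inha, Aldh1a1 and Wnt4 it was among the 4 of 14 called higher in pESC-PGCLCs than in ESC-PGCLCs, beside 10.3% of all genes (Rspo1, 1.84 ± 0.24 on the log2 scale, limma adjusted p = 0.00138).

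Of 9 tested partners of the signaling genes, 5 were called higher in ESC-PGCLCs against ESCs, 7 in pESC-PGCLCs against pESCs and 8 in PGCs against ESCs, beside the same shares of all genes (15.3%, 20.8% and 23.4%). In both ESC libraries 4 of the 10 partners in the table were under 0.5 TPM, and these counts are descriptions too. Between the PGCLCs 1 was called higher, Inha, beside 10.3%. The most abundant were the BMP receptor gene Bmpr1a, the activin receptor gene Acvr2a and Kit. Bmpr1a was at 43.3 and 45.0 TPM in ESC-PGCLCs, 44.9 and 42.3 TPM in pESC-PGCLCs and 68.6 and 66.9 TPM in PGCs, and was higher in PGCs than in ESCs by 2.92 ± 0.22 on the log2 scale (limma adjusted p = 2.96e-05). Kit, the receptor of KIT ligand, was at 11.7 and 12.2 TPM in ESC-PGCLCs and 11.3 and 10.4 TPM in pESC-PGCLCs, a log2 difference of -0.13 ± 0.25 (limma adjusted p = 0.786).

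Steroid-producing and interstitial genes were scarcer. Of 14 listed, 1 was called higher in pESC-PGCLCs than in ESC-PGCLCs, the steroid enzyme gene Hsd3b1, beside 10.3% of all genes. In PGCs against ESCs, Ptch1 and Nr2f1 were called higher, beside 23.4% of all genes, and Gli2 lower. These counts lie near or under the shares of all genes. The most abundant of the list were Ptch1, the hedgehog receptor gene, Insl3, a Leydig cell hormone gene, and Star, which brings cholesterol into mitochondria. Ptch1 was at 10.5 and 9.16 TPM in ESC-PGCLCs, 5.46 and 5.66 TPM in pESC-PGCLCs and at a mean of 13.4 TPM in PGCs. Cyp17a1, needed for androgen synthesis and chosen after its values were seen, was listed at 0 in stem cells and ESC-PGCLCs, at 0.651 and 0.196 TPM in pESC-PGCLCs and at 0.507 and 0.256 TPM in PGCs. The summed level of the 14 genes was 14.8 to 15.7 TPM in ESC-PGCLCs, 14.7 to 16.5 TPM in pESC-PGCLCs and 27.2 to 28.8 TPM in PGCs.

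Of 11 genes of coelomic epithelium and mesothelium, Krt18, Krt8, Cpe and Podxl were called higher in pESC-PGCLCs than in ESC-PGCLCs, 4 of 11 beside 10.3% of all genes. The other 7 were not called, and the median log2 difference of the list was 0.43 against 0.12 over all genes. The most abundant were Cpe, Krt18 and Aldh1a2. Krt18, an epithelial keratin, was at 4.10 and 5.81 TPM in ESC-PGCLCs and 22.9 and 24.4 TPM in pESC-PGCLCs. Bnc1 went the other way, with 10.7 and 11.2 TPM in ESC-PGCLCs and 8.16 and 8.62 TPM in pESC-PGCLCs. Of 18 further factors of gonad formation, 3 (Gadd45g, Nr0b1 and Map3k4) were called higher in pESC-PGCLCs than in ESC-PGCLCs, beside 10.3% of all genes, and their median log2 difference of 0.09 lay below the 0.12 of all genes. In PGCs 4 of the 18 were called higher than in ESC-PGCLCs, beside 12%, and 0 than in pESC-PGCLCs, beside 2.07%. Against ESCs 14 were called higher in PGCs, beside 23.4%, and Nr0b1 was called lower. In both ESC libraries 9 of the 18 were under 0.5 TPM, so this count against stem cells is a description here too. The most abundant were Nr0b1, Cited2 and Six4.

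The summed markers of other cell types followed the order of the 10 genes in some lists and not in others, and their part in these results was not tested. The 13 blood and macrophage markers summed to 1.00 to 5.42 TPM in stem cells, 489 to 557 TPM in ESC-PGCLCs, 2874 to 3402 TPM in pESC-PGCLCs and 1966 to 2153 TPM in PGCs. This sum was higher in pESC-PGCLCs than in PGCs, the reverse of the order of the 10 gonadal genes. The 12 fibroblast markers lay between 34.5 and 73.3 TPM in all 10 libraries, with a mean of 48.7 TPM in ESCs and 37.1 TPM in ESC-PGCLCs, and the 10 endothelial markers between 1.97 and 6.52 TPM, with means of 3.12 and 2.26 TPM in these groups. Both sums were thus lower in ESC-PGCLCs than in ESCs, unlike that of the 10 genes, but single genes weigh heavily in them. Fn1 had a mean of 33.3 TPM in ESCs and 18.0 TPM in ESC-PGCLCs, and Tek of 2.71 and 0.220 TPM. The median log2 change from ESCs to ESC-PGCLCs was 0.27 for the fibroblast markers and 0.14 for the endothelial markers, against 0.05 over all genes. By this measure neither list was lower. The 7 mesonephric markers lay between 0.172 and 9.24 TPM, with a mean of 4.32 TPM in ESC-PGCLCs and 4.31 TPM in pESC-PGCLCs. The 12 endoderm markers reached 26.5 TPM and the 13 markers of lateral plate and cardiac mesoderm 70.0 TPM, both in PGCs. The mesoderm sum was lower in pESC-PGCLCs (mean of 36.8 TPM) than in ESC-PGCLCs (48.2 TPM). Most of it was Msx1 (11.4 against 24.4 TPM) and Msx2 (12.8 against 17.1 TPM), while Bmp4 was higher (7.33 against 3.74 TPM). The median log2 difference of the mesoderm markers was 0.08, against 0.12 over all genes. The 13 germ cell markers summed to 9638 to 9856 TPM in ESC-PGCLCs, 7174 to 7763 TPM in pESC-PGCLCs and 6647 to 8222 TPM in PGCs, so the germ cell sum did not follow the order of the gonadal sum.

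**Figure D5:**
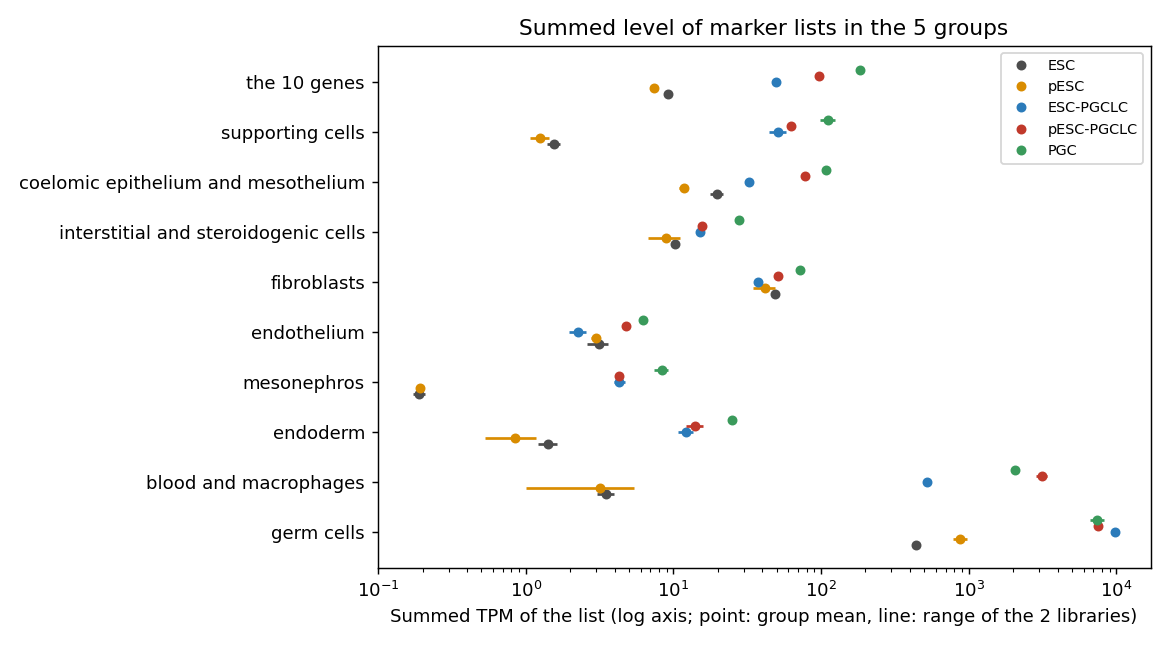
Summed TPM (x axis, log) of the 10 genes and of 9 marker lists in the 5 groups, with the group mean as a point and the range of the 2 libraries as a line. The blood list reaches 3402 TPM in pESC-PGCLCs, above PGCs, while the 10 genes and the supporting cell list are highest in PGCs, with 111.8 TPM for the latter.

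The genes most like each of the 10 were found by Pearson's r of log2(TPM + 1) over the 10 libraries among the 14838 others whose mean reached 1 TPM. The points share library depth and the split into stem cells and germ cells, which by itself gives high r: 2336 of these genes were over 0.95 for Kitl, 2317 for Wt1 and 2309 for Lhx9. For Amhr2, only 8 were, led by Tm7sf2 (r = 0.979), Amotl1 (r = 0.973) and Sulf1 (r = 0.965). Closest to Emx2 were Cav1 (r = 0.996), Aldh1a1 and Zyx, and closest to Nr5a1 were Mfap2 (r = 0.993), Dync1h1 and Phf11c. For Gata4 they were Gm8113, Cgn and Wfdc1, for Foxl2 Cc2d1a, Maz and Dab2ip, for Fst Ube2q1, Specc1l and Kansl3, and for Nr2f2 Ankrd31, Gm26611 and Gch1. For Wt1 they were Ppp2r3a, Eif4e3 and Homer2, for Lhx9 Pxdn, Dsc2 and Eif4e3, and for Kitl Slc5a3, Ap3b2 and Lrrc42. Among the 10 genes themselves, r ran from 0.524 between Amhr2 and Nr2f2 to 0.997 between Wt1 and Lhx9.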

How the data were processed

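The authors deposited 1 table of TPM, with a row per gene symbol (36066) and no further normalization. The authors' methods name mm10, HISAT2 and Feature-counts, whereas the submitters' processing notes name Bowtie2, HISAT2, RSEM, R 3.4.2 and DESeq2. The library kit differs between the labels and the methods. All columns of values were used (0 left out). Genes were matched to GENCODE M21 (GRCm38). TPM multiplied by exon length gave whole reads within 0.05 for 95.1% to 95.4% of values above 0, which gave depth and floors (3 reads, counting error only). In R 4.3.3, limma 3.58.1 fitted log2(TPM + 1) for 27259 genes with at least 0.1 TPM in 2 libraries, with 1 mean per group, a mean-variance trend and 5 residual degrees of freedom. P-values were adjusted by Benjamini-Hochberg within each comparison. The test was checked on simulated data in which all groups shared the same levels, except for changed genes in PGCs. That check does not cover the lean of calls with the scaling of the libraries. The 10 genes and all lists were chosen with earlier results of these data known. All 10 genes are named, with the 3 genes most like each. Of each gonadal list, the 3 genes of highest mean TPM were to be named, and up to 4 called genes by size of change in a comparison described, of which the text gives the former and the called genes of the comparison between PGCLCs. Marker lists of other cells are given by their sums. Alternatives were another pseudocount (0.1 TPM), filters of 1 TPM and none, quantile normalization, median centring, the replicate block and leaving out each library. Limma with voom on recovered reads and median scaling of TPM before the log were added after seeing the data. Stretches of 100 bases shared with other genes were counted.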

Additional observations from a re-analysis of the deposited data

Results flagged for a closer look

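For 5 of the 10 genes the change from stem cells to PGCLCs differed between the parthenogenetic and the fertilized line by the interaction test of limma. Beside them, 15.5% of all genes were called higher in this interaction. The calls of Fst and Kitl were lost with median scaling of TPM and with quantile normalization, and no call remained with median centring. Amhr2 differed by 1.74 on the log2 scale, Gata4 by 1.60, Emx2 by 1.43, Fst by 1.28 and Kitl by 1.01. Emx2 counts as a description only, since it reached 0.1 TPM in no stem cell library. The rise of Gata4, Emx2, Fst and Kitl was larger in the parthenogenetic line. Amhr2 changed in opposite directions, by -0.83 in the fertilized line and 0.91 in the parthenogenetic line. The ESC-PGCLC libraries had the fewest reads of all groups (7697692 and 6779837), and the blood marker sum was also higher in pESC-PGCLCs, and the part of either in these differences was not tested. Groups of 2 libraries were not examined for single samples far from the rest.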

How the results depend on the processing

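With a pseudocount of 0.1 TPM, and with voom on recovered reads, 8 genes were called between ESC-PGCLCs and ESCs (7 higher and 1, Amhr2, lower). Among them, Wt1, Nr5a1, Lhx9 and Emx2 count as descriptions only. Between PGCs and pESC-PGCLCs the count was 1 with that pseudocount and 0 with quantile normalization, median centring and median scaling of TPM, and 0 to 3 when 1 library was left out. For the interaction it was 3 with quantile normalization, 0 with median centring, 3 with median scaling of TPM and 3 to 6 with 1 library left out, the 3 arising without pESC replicate 1, ESC-PGCLC replicate 1 or pESC-PGCLC replicate 2. Scaled by the median, the sums were 9.95 (ESCs), 10.2 (pESCs), 53.9 (ESC-PGCLCs), 78.4 (pESC-PGCLCs) and 134.7 TPM (PGCs).

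Reversed log2 changes were all of uncalled differences. Between pESCs and ESCs, Wt1 gave -0.047 to 0.082 with 1 library left out and -0.062 with voom, and Foxl2 gave -0.042 to 0.0082 with 1 library left out. Median centring gave 0.23 for Gata4, 0.33 for Lhx9, 0.32 for Foxl2, 0.15 for Kitl and 0.26 for Nr2f2 there, and, since it subtracts a constant after the pseudocount, it moves genes at 0 by construction. Between the PGCLCs, Lhx9 gave -0.061 with quantile normalization, -0.13 with median centring and -0.093 with median scaling of TPM, and Foxl2 gave -0.028 with median centring. Median centring also gave -0.28 for Foxl2 from pESCs to pESC-PGCLCs and -0.040 for Nr2f2 between PGCs and ESC-PGCLCs, and Nr2f2 between PGCs and pESC-PGCLCs gave -0.13 to 0.063 with 1 library left out. In the interaction, median centring gave -0.17 for Wt1, -0.46 for Lhx9, -0.35 for Foxl2 and -0.0680 for Nr2f2, and Lhx9 gave -0.047 with quantile normalization and -0.086 with median scaling of TPM. The cause of the other reversals was not tested.

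For same-numbered libraries, r of their deviations ran from -0.0507 to 0.238 over 10 pairs of groups (median 0.03). The replicate block changed no call (9 of 10 called between PGCs and ESC-PGCLCs, 5 in the interaction). These values cannot show whether same-numbered libraries were prepared together.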
